A study of Mus musculus with 12 samples.

Results

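The amino acid transporter families are the solute carrier families 1, 3, 6, 7, 36, 38 and 43. Their members were taken by name, as every row of the deposited table whose gene symbol begins with Slc, one of these family numbers, the letter a and a further number. The rule found 51 of the 17175 genes in the table. Of these, 48 name a transporter (12 in family 6, 12 in family 7, 10 in family 38, 6 in family 1, 3 in family 43, 3 in family 36 and 2 in family 3). The other 3 are Slc36a3os, Slc6a19os and Slc7a6os, which carry the name of a neighbouring transporter gene with the suffix os and were kept because they match by name. The small intestine of mice labelled WT or Bmpr1a cKO was sampled in its proximal and distal parts, which gives 4 groups of 3 libraries. Bone morphogenetic proteins (BMPs) signal through the receptor that Bmpr1a encodes, and cKO stands for conditional knockout. The strain, age, sex, number of animals and the Cre line of the cKO are not given in the sources used here, nor is a treatment or how the tissue was dissected. The series title names the question, how BMP and Wnt signals together set the length of villi.

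Values are scaled read counts, the reads of a gene plus 1 divided by a size factor of the library, as the authors deposited them. A gene without reads therefore stands close to 1. Depth was 11242024 to 17722756 recovered reads per library. Of the 51 members, 14 had 0 reads in at least 1 library, and no filter on low values was applied. A member is said to rise, fall or pass when its Benjamini-Hochberg adjusted p over all 17175 genes, from limma on log2(value + 1), was under 0.05. Log2 fold changes are on that scale, on which the change of a gene with few reads is understated. Whether the 3 libraries of a group are from different mice is not stated, and p-values measure only the spread between libraries, some of which may be technical. In bulk RNA, fewer cells of a type and less RNA per cell cannot be told apart.

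Bmpr1a stood at 772 to 1029 in WT proximal, 833 to 1087 in cKO proximal, 438 to 631 in WT distal and 486 to 668 in cKO distal libraries, and its gene-level value checks neither the deletion nor the labels because exons outside a deleted part are counted too. The BMP-induced gene Id1 stood at 972 to 1650 in the WT and at 112 to 232 in the cKO libraries. Several library measures moved with the groups. Mitochondrially encoded genes took 17.4% to 26.0% of the reads in WT proximal, 22.3% to 37.7% in WT distal, 9.75% to 14.8% in cKO proximal and 9.95% to 27.7% in cKO distal libraries. Markers of the tissue's absorptive cells (Alpi, Vil1, Fabp2, Krt20 and Sis, 5 of 5 in the table) summed to 259480 to 299858 in WT proximal, 100582 to 208477 in WT distal, 250205 to 284777 in cKO proximal and 172614 to 294892 in cKO distal libraries. Of 17 genes that mark the proximal or distal intestine, 15 passed between the segments in each genotype (6 higher and 9 lower in the distal segment in WT, 7 and 8 in cKO). Markers of B and plasma cells (6 of 6 in the table) summed to 1367 to 4096, 7861 to 18254, 366 to 701 and 221 to 517 in WT proximal, WT distal, cKO proximal and cKO distal libraries. Both cKO libraries numbered 1 held 0 reads of 4 Y-linked genes, against 1251 to 2390 in the other 10. The other 10 include every WT library, so by Y-linked reads sex was mixed in the cKO groups only. The part of sex in the genotype results was not tested by itself.

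Absorbed amino acids cross the enterocyte in 2 steps. Transporters in the brush border membrane, which faces the gut lumen, take them up with sodium or protons or by exchange, and transporters in the basolateral membrane pass them on to the blood. Some carriers work as pairs of a heavy and a light chain held by a disulfide bond: Slc3a1 (rBAT) with Slc7a9 at the brush border, and Slc3a2 (4F2hc) with light chains of family 7 at the basolateral side. Members of families 1 and 6 also take up glutamate, serotonin, dopamine, glycine, proline, creatine, betaine and taurine, several of them best known from the nervous system.

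The stretches in front of 5 members are shown because the values below turn on these genes or because the stretch holds the motif that was searched for. Slc3a1 and Slc7a9 encode the 2 chains of one transporter, Slc7a7 and Slc7a11 are the only members with the amino acid response element motif, and Slc6a14 had the largest difference between the segments in WT. Sequences are from RefSeq windows on GRCm38.p6, the build that the submitters' notes call mm10, in which 38 of the 51 members were matched. Each is the part of the 250 bases before the RefSeq start that lies outside exons annotated in GENCODE M21, 5′ to 3′ on the gene's strand, with motif matches on either strand in capitals.
Slc3a1 (chr17:85028097-85028346, plus strand, 250 bases): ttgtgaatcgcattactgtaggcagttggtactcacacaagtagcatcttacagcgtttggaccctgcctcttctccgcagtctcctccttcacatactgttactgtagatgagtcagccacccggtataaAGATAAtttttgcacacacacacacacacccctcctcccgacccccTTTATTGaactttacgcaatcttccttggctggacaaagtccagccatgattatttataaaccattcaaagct
Slc7a9 (chr7:35448842-35449036, plus strand, 195 bases): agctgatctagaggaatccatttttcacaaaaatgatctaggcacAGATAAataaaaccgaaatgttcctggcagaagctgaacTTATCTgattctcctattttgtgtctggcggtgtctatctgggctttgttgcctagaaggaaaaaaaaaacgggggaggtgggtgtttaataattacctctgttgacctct
Slc7a7 (chr14:54417781-54417952, minus strand, 172 bases): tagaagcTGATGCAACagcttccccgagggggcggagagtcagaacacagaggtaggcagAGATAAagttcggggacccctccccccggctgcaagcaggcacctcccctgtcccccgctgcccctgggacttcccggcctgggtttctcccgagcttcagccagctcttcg
Slc7a11 (chr3:50443615-50443863, minus strand, 249 bases): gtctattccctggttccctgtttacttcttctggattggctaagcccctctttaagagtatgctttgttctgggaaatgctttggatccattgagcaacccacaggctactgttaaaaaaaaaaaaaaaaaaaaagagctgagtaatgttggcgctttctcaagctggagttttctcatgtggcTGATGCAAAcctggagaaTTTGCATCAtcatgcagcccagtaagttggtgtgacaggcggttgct
Slc6a14 (chrX:21714650-21714895, plus strand, 246 bases): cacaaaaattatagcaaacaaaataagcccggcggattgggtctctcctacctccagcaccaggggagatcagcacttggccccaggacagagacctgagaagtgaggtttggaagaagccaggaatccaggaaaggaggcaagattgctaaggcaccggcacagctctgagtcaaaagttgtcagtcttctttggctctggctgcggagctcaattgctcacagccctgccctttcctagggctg
The motif TGATGNAAN, a form of the element bound by ATF4 when amino acids are short, was found in 3.44% of all 32851 windows and in 2 of the 38 members, Slc7a11 (2 matches, starting 66 and 48 bases before the start) and Slc7a7 (243 bases before). A further 3 motifs were searched after the members' values had been seen. The GATA factor motif AGATAA was found in 9.99% of all windows and in 3 members, Slc3a1, Slc7a7 and Slc7a9. The CDX motif TTTATNG was found in 9.81% of all windows and in 2 members, Slc3a1 and Slc7a15. The SMAD motif GGCGCC was found in 9.59% of all windows and in 8 members, Slc36a4, Slc38a2, Slc43a1, Slc6a20a, Slc6a3, Slc6a4, Slc7a1 and Slc7a15. None of the 18 matches in the members shared a base with another, and a gene with several start sites has several windows among the 32851. These are matches of letters and nothing is drawn from them: Slc7a11 passed in none of the 5 comparisons and Slc7a7 passed in 1.

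The members differ widely in level. Per length, as scaled count per kilobase of merged exons over the 48 members that name a transporter, the same 5 led in all 4 groups: Slc6a8 (creatine uptake), Slc6a19 (neutral amino acids), Slc3a2, Slc7a9 and Slc3a1. Slc6a8 stood first in WT, at 2786 per kilobase in the proximal and 1694 in the distal libraries on average, and Slc6a19 stood first in cKO, at 2221 and 3659. These 5 made up 62.4% to 63.8% of the summed per-kilobase level of these 48 in WT proximal, 57.7% to 64.8% in WT distal, 52.3% to 59.5% in cKO proximal and 54.7% to 68.6% in cKO distal libraries. At the other end, 17 to 20 of the 48 had a group mean under 10 per kilobase. The summed level of the 48 was 10084 to 17542 per kilobase in WT proximal, 5906 to 14146 in WT distal, 15759 to 16789 in cKO proximal and 15291 to 24523 in cKO distal libraries, so the lowest sums were in WT distal and the highest in cKO distal, with WT distal library 3 apart from the other 2 of its group.

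The first question was which transporters differed between cKO and WT in the distal segment. There 25 of the 51 members passed, 18 higher and 7 lower in cKO (35.3% and 13.7% of the members), against 13.3% higher and 11.7% lower over all genes. The median log2 fold change was 0.39 over the members and 0.06 over all genes. The 18 that rose include the main carriers of both membranes of the enterocyte, and among the 7 that fell are Slc6a14, Slc7a5 and the glutamate transporters Slc1a2 and Slc1a3. In the proximal segment 8 members passed, 7 higher and 1 lower (13.7% and 1.96%), against 4.21% higher and 4.05% lower over all genes, with medians of 0.21 and 0.08. With TMM scaling in place of the deposited one the proximal median of all genes was -0.017 in place of 0.084, that of the members 0.11, and 5 members were higher and 2 lower. The plot of fold changes by role shows both segments side by side.

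**Figure D1:**
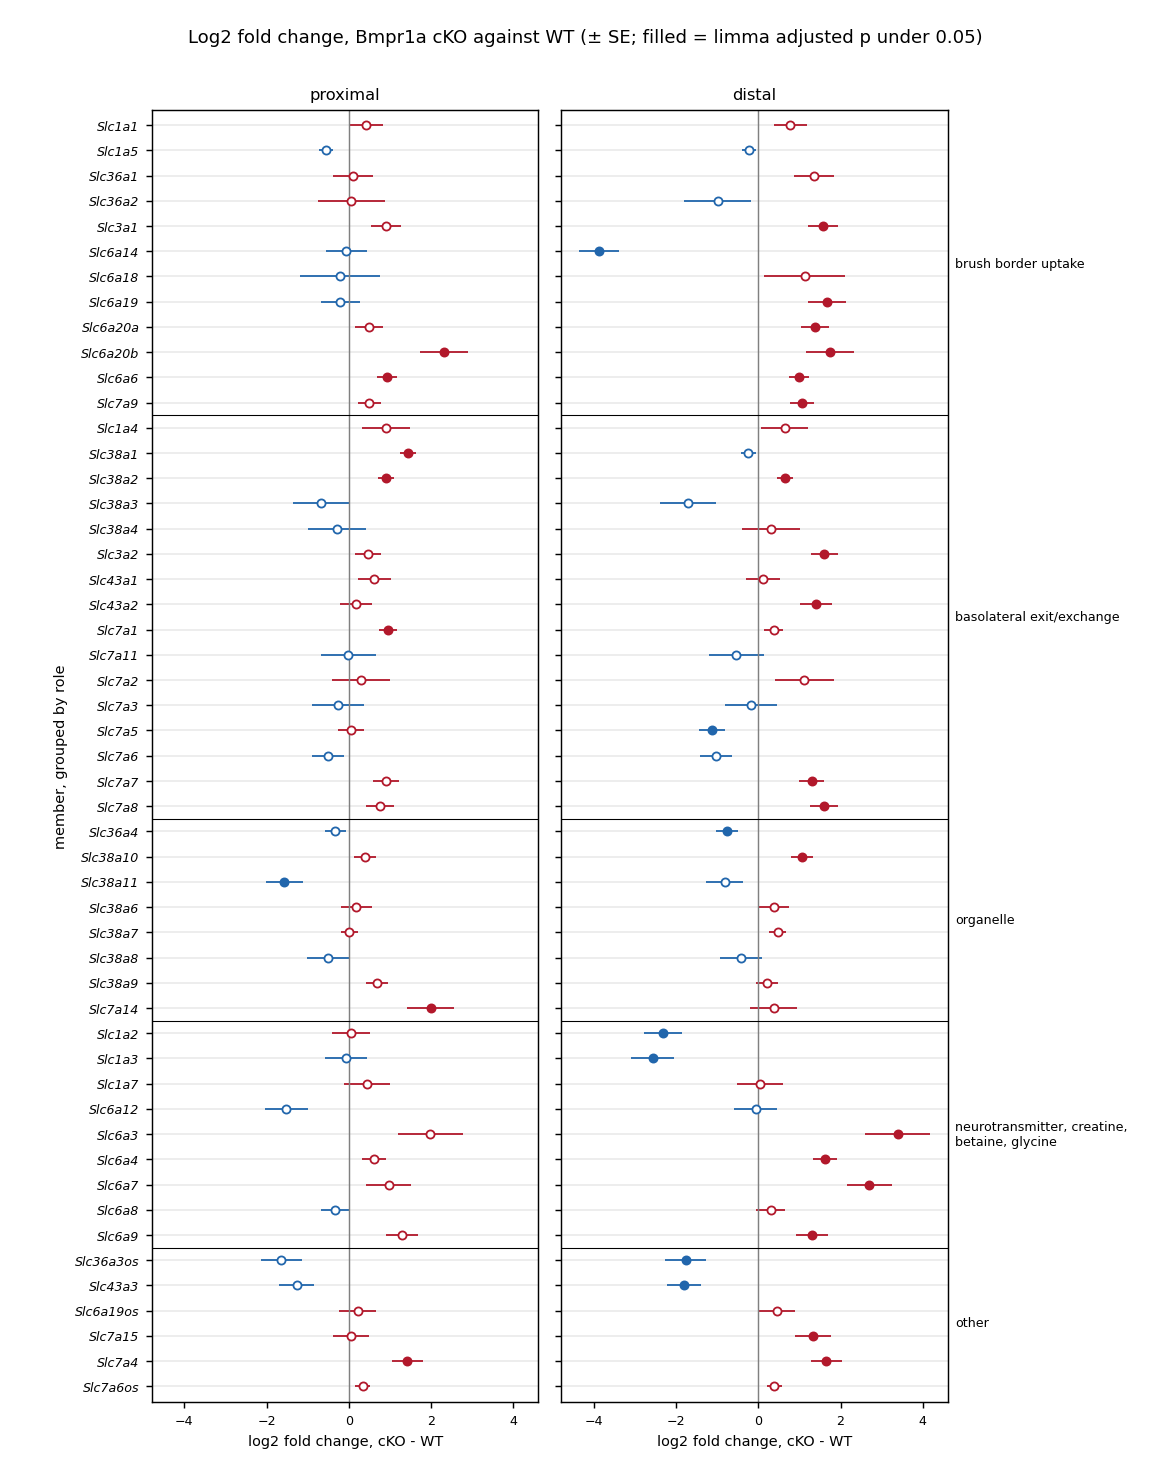
Log2 fold change (x axis) of each of the 51 members (y axis, grouped by role) between Bmpr1a cKO and WT in the proximal (left) and distal segment (right), from limma, with bars of 1 SE; filled points passed at an adjusted p under 0.05. In the distal panel 18 filled points lie to the right and 7 to the left, in the proximal panel 7 and 1.

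At the brush border, 6 of the 12 measured uptake transporters rose in cKO distal and 1 fell (50% and 8.33%, against 13.3% and 11.7% over all genes), and the list's median was 1.10. Slc6a19, the main sodium-dependent carrier of neutral amino acids (gene on chromosome 13 from 73679745 to 73704865, minus strand, mm10), stood at 3256, 3705 and 13133 in WT distal and at 20167, 10444 and 24336 in cKO distal libraries 1, 2 and 3. WT distal library 3 lay above cKO distal library 2, so the groups overlapped, while WT distal 1 and 2 were below every cKO library. Its log2 fold change was 1.67 (SE 0.47, adjusted p = 0.0184), and the call ended when WT distal 1 or 2 or cKO distal 1 or 3 was left out (adjusted p up to 0.0919).

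The 2 chains of the cystine and dibasic amino acid transporter both rose in the distal segment. Slc3a1, the heavy chain, stood at 1023, 1499 and 2804 in WT distal and at 7129, 3194 and 5102 in cKO distal libraries. The groups did not overlap, although WT distal 3 and cKO distal 2 came close. Its log2 fold change was 1.58 (SE 0.36, adjusted p = 0.00568), and it kept its call whichever library was left out. Slc7a9, the light chain, stood at 2052, 2013 and 3754 against 7634, 5071 and 3710, so that WT distal 3 lay just above cKO distal 3. Its log2 fold change was 1.07 (SE 0.29, adjusted p = 0.0148), and leaving out WT distal 1, WT distal 2 or cKO distal 1 ended the call (adjusted p up to 0.0803). The level of Slc7a9 over that of Slc3a1, each per kilobase of merged exons, was 1.14 to 1.70 in WT distal libraries. In cKO distal libraries the ratio was 0.617 to 1.35, so the groups overlap. Exons of Slc3a1 overlap Prepl on the opposite strand, and whether counting used strand is not given in the sources used here. The same limit holds for Slc7a7 (Oxa1l), Slc7a4 (P2rx6), Slc6a9 (B4galt2), Slc6a20a (Ccr9, Gm17120 and Gm17200), Slc6a20b (Sacm1l), Slc38a9 (Gm47827), Slc38a10 (Gm11769), Slc43a2 (Gm45606) and Slc1a1 (4430402I18Rik), each with exons of the gene in brackets on the opposite strand.

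Slc6a6, the taurine transporter, rose in both segments. It stood at 2829, 2128 and 3248 in WT proximal, 4882, 4602 and 5927 in cKO proximal, 1861, 2261 and 3472 in WT distal and 5257, 5102 and 4270 in cKO distal libraries. Every cKO library was above every WT library. The log2 fold change was 0.92 in the proximal (SE 0.24, adjusted p = 0.0297) and 0.99 in the distal segment (SE 0.24, adjusted p = 0.00759). The proximal call ended without WT proximal 2 or any one cKO proximal library (adjusted p up to 0.129), and the distal call held whichever library was left out (adjusted p up to 0.0372).

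The proline and imino acid carriers are encoded by a pair of neighbouring genes on chromosome 9, Slc6a20a and Slc6a20b. Slc6a20a stood at 673, 567 and 1303 in WT distal and at 2783, 2154 and 1497 in cKO distal libraries, without overlap, a log2 fold change of 1.39 (SE 0.34, adjusted p = 0.00918) that did not pass without WT distal 2 or cKO distal 1 (adjusted p up to 0.0549). Slc6a20b was far lower and rose in both segments, from 41.0, 13.5 and 27.9 to 188, 161 and 69.9 in the proximal and from 4.87, 13.4 and 16.9 to 54.0, 55.6 and 17.0 in the distal segment. Its log2 fold changes were 2.32 (SE 0.58, adjusted p = 0.0284) and 1.74 (SE 0.58, adjusted p = 0.0427), and each call was lost in 4 of the 6 fits that left out a library, those without WT proximal 2 or 3 or cKO proximal 1 or 2 (adjusted p up to 0.118) and without either library 1 or 2 of the distal groups (adjusted p up to 0.177). The transcripts are 91.8% identical over 585 bases. Slc6a20a is also 36 to 314 times as high as Slc6a20b per kilobase of merged exons, so the reads given to Slc6a20b are uncertain.

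Slc6a14, a carrier of neutral and cationic amino acids, went the other way. It stood at 95.0, 189 and 285 in WT distal and at 18.0, 10.8 and 6.38 in cKO distal libraries. Every WT distal library was far above every cKO distal one. The log2 fold change was -3.87 (SE 0.49, adjusted p = 9.45e-05), the largest decrease among the members on the log2(value + 1) scale, and the call held whichever library was left out. In the proximal segment the gene had 0, 0 and 1 reads in WT and 1, 0 and 0 in cKO libraries, so no genotype difference could be measured there at this depth.

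The other 5 brush border members did not pass between genotypes. Slc1a1 (glutamate and aspartate) stood at 487, 397 and 981 in WT distal and 1497, 1168 and 550 in cKO distal libraries (log2 fold change 0.78, SE 0.41, adjusted p = 0.192). Slc1a5 (neutral amino acid exchange, glutamine) stood at 635, 506 and 558 in WT proximal and 371, 378 and 395 in cKO proximal libraries, which do not overlap (log2 fold change -0.56, SE 0.17, adjusted p = 0.0590). With TMM scaling that difference passed, at -0.67 (adjusted p = 0.0239). Slc36a1, a proton-coupled carrier of small amino acids, stood at 634, 576 and 997 in WT distal and 2742, 2150 and 1045 in cKO distal libraries (log2 fold change 1.36, SE 0.49, adjusted p = 0.0578). Slc6a18 and Slc36a2 stayed between 1.06 and 25.2 apart from a value of 103 for Slc6a18 in cKO distal 3.

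**Figure D2:**
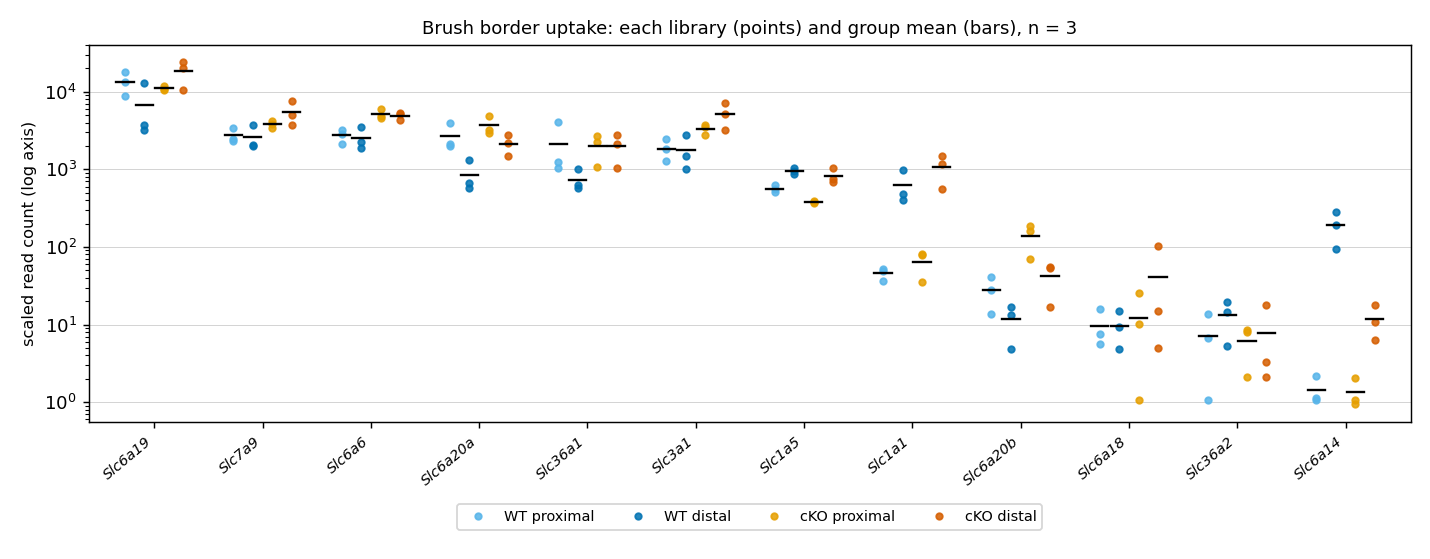
Scaled read count (y axis, log) of the 12 brush border uptake members (x axis) in each library (points, coloured by group) with the group mean (black bars). Slc6a19 lies highest, with WT distal library 3 apart from the other 2, and Slc6a14 stands at 95.0 to 285 in WT distal and at most at 18.0 in every other library.

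At the basolateral side, 5 of the 16 measured members rose in cKO distal and 1 fell (31.2% and 6.25%, against 13.3% and 11.7% over all genes), with a median of 0.34. Slc3a2, the heavy chain shared by several light chains, stood at 1830, 1829 and 3828 in WT distal and at 10917, 5276 and 6332 in cKO distal libraries. Its groups did not overlap, and the log2 fold change was 1.61 (SE 0.32, adjusted p = 0.00272). The light chain Slc7a8 (LAT2, neutral amino acids) stood at 851, 1131 and 2505 against 5591, 4229 and 2807, and Slc7a7 (y+LAT1, the exit route of dibasic amino acids) at 1061, 1532 and 2721 against 5909, 3954 and 2824. Both sets of libraries were separate, narrowly so between WT distal 3 and cKO distal 3. Slc7a8 rose by 1.59 (SE 0.34, adjusted p = 0.00421) and Slc7a7 by 1.3 (SE 0.31, adjusted p = 0.00840) on the log2 scale. These 3 calls held whichever library was left out.

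Slc43a2 (LAT4), which lets large neutral amino acids leave the cell down their gradient, stood at 3154, 3513 and 8692 in WT distal and at 17543, 11702 and 8782 in cKO distal libraries. WT distal 3 and cKO distal 3 were nearly level. The log2 fold change was 1.41 (SE 0.39, adjusted p = 0.0177), and it did not pass without WT distal 1, WT distal 2 or cKO distal 1 (adjusted p up to 0.0884). The light chain Slc7a5 (LAT1), a large neutral amino acid exchanger known from dividing cells, fell. It stood at 180, 203 and 182 in WT distal and at 54.0, 90.4 and 128 in cKO distal libraries, without overlap (log2 fold change -1.13, SE 0.31, adjusted p = 0.0168). The call ended without WT distal 2 or cKO distal 1 (adjusted p up to 0.0879). Markers of stem and cycling cells (5 of 5 in the table) summed to 2323 to 3142 in WT distal and 772 to 2004 in cKO distal libraries, against 635 to 1701 in WT proximal and 525 to 769 in cKO proximal ones, and 3 of the 5 fell in cKO distal (Ascl2, Mki67 and Top2a). Markers of B and plasma cells summed to 7861 to 18254 in WT distal and 221 to 517 in cKO distal libraries. In WT proximal they summed to 1367 to 4096 and in cKO proximal to 366 to 701, and all 6 fell in cKO distal. The part of either set of markers in the Slc7a5 result was not tested. Per kilobase of merged exons, the level of Slc7a5 over that of Slc7a8 was 0.0983 to 0.286 in WT distal libraries. This ratio was 0.0130 to 0.0614 in cKO distal libraries.

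In the proximal segment the basolateral members that rose were the sodium-coupled neutral carriers Slc38a1 and Slc38a2 and the cationic carrier Slc7a1, 3 of 16 (18.8%, against 4.21% over all genes), with a median of 0.38. Slc38a1 stood at 571, 505 and 706 in WT proximal and at 1465, 1503 and 1837 in cKO proximal libraries. Each cKO proximal library was above every other of the 12 libraries, and the gene was between 505 and 822 in all 6 distal ones. Its log2 fold change was 1.44 (SE 0.19, adjusted p = 0.000712), and of the 8 proximal calls this alone held in every fit run, with each library left out and with each other setting. In the distal segment the difference was -0.24 (SE 0.19, adjusted p = 0.378).

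Slc38a2 rose in both segments, from 782, 569 and 701 to 1003, 1405 and 1430 in the proximal and from 896, 1160 and 1023 to 1581, 1843 and 1409 in the distal segment. No cKO library overlapped the WT libraries of its segment. The log2 fold changes were 0.90 (SE 0.19, adjusted p = 0.0125) and 0.65 (SE 0.19, adjusted p = 0.0221). The proximal call ended once WT proximal 2 or either of cKO proximal 2 and 3 was left out (adjusted p up to 0.0612) and the distal call without WT distal 1, cKO distal 1 or cKO distal 2 (adjusted p up to 0.0881). Slc7a1 (CAT1) stood at 293, 184 and 276 in WT proximal and 436, 557 and 448 in cKO proximal libraries, a log2 fold change of 0.95 (SE 0.22, adjusted p = 0.0190) that did not pass without WT proximal 2 or cKO proximal 2 (adjusted p up to 0.0861). In the distal segment its difference was 0.37 (SE 0.22, adjusted p = 0.249).

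The other 8 basolateral members passed in neither genotype comparison. Slc7a6 (y+LAT2) stood at 155, 202 and 137 in WT distal and 65.7, 57.3 and 135 in cKO distal libraries (log2 fold change -1.02, SE 0.39, adjusted p = 0.0715). Slc38a3 (glutamine) stood at 25.6, 23.6 and 40.1 against 4.24, 6.64 and 18.1 (log2 fold change -1.71, SE 0.68, adjusted p = 0.0832). In both, cKO distal 3 was the cKO library nearest to the WT ones. Slc7a2 (log2 fold change 1.12, SE 0.71), Slc1a4 (0.64, SE 0.58), Slc43a1 (0.11, SE 0.41) and the cystine carrier Slc7a11 (-0.54, SE 0.67) overlapped between genotypes in the distal segment. Slc38a4 and Slc7a3 stood under 10 in all 12 libraries.

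**Figure D3:**
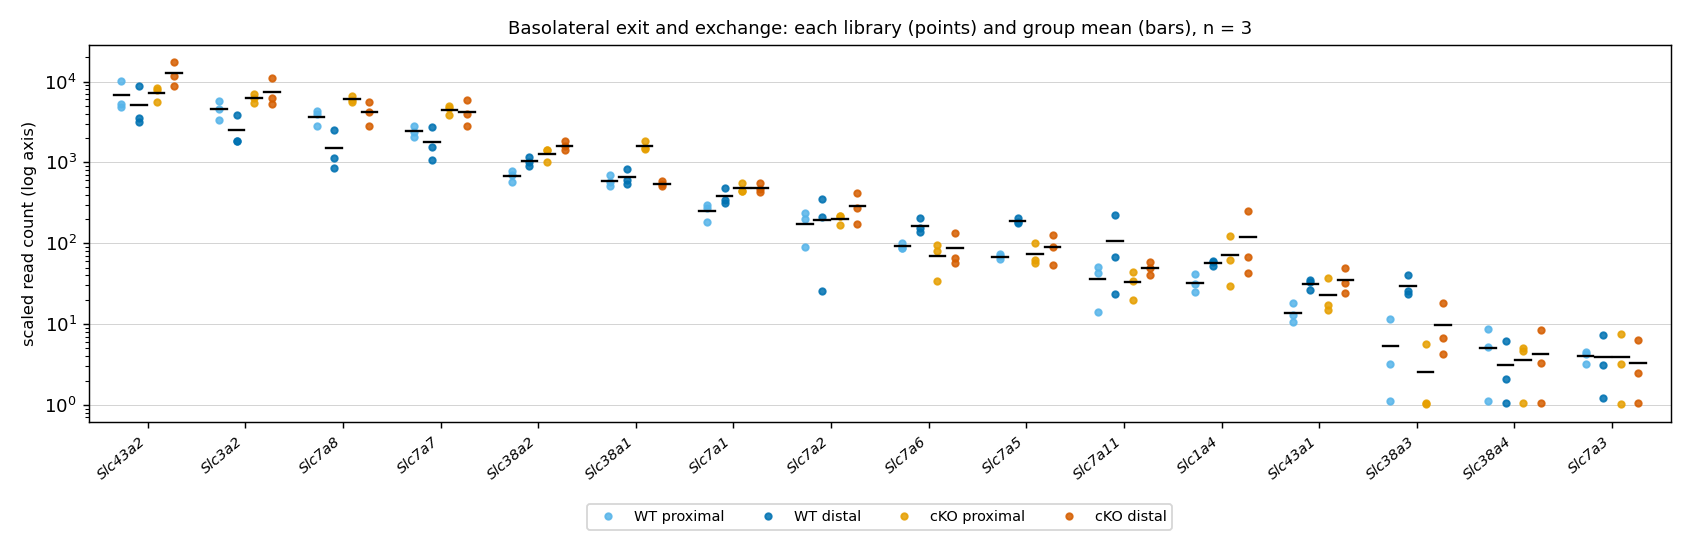
Scaled read count (y axis, log) of the 16 members of basolateral exit and exchange (x axis) in each library (points, coloured by group) with the group mean (black bars). Slc38a1 is at 1465 to 1837 in cKO proximal and at 505 to 822 in the other libraries, and Slc3a2, Slc7a7 and Slc7a8 are lowest in WT distal libraries 1 and 2.

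Among the carriers of neurotransmitters, creatine, betaine and glycine, 4 of 9 rose and 2 fell in cKO distal (44.4% and 22.2%, against 13.3% and 11.7% over all genes). Slc6a4, the serotonin transporter, which enterocytes also express, stood at 416, 485 and 792 in WT distal and at 2344, 1961 and 1021 in cKO distal libraries. The groups were separate, with WT distal 3 and cKO distal 3 nearest to each other. The log2 fold change was 1.62 (SE 0.29, adjusted p = 0.00133). Slc6a7, a proline transporter known from brain, stood at 99.8, 36 and 308 against 699, 580 and 778. All 3 cKO distal libraries lay well above the others (log2 fold change 2.70, SE 0.55, adjusted p = 0.00290). Both calls held whichever library was left out.

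Slc6a3, the dopamine transporter, had 0 reads in each WT distal library and 26, 5 and 55 reads in the cKO distal libraries. Against a floor of 3 reads per WT library it was at least 9.11-fold higher in cKO (adjusted p = 0.00686), and at least 4.8-fold higher without cKO distal 3. Slc6a9, the glycine transporter GlyT1, stood at 36.5, 48.3 and 51.7 in WT distal and 126, 139 and 81.9 in cKO distal libraries, without overlap (log2 fold change 1.31, SE 0.39, adjusted p = 0.0236). That call ended without either library 1 or 2 of the distal groups (adjusted p up to 0.0870).

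The glutamate transporters Slc1a2 (GLT-1) and Slc1a3 (GLAST), best known from glial cells, were low and fell in cKO distal. Slc1a3 had 11, 13 and 11 reads in WT distal and 2, 0 and 0 in cKO distal libraries, a ratio of 19.7 (95% interval 5.06 to 169, counting error only; adjusted p = 0.00301). Slc1a2 had 11, 14 and 6 against 1, 1 and 0 reads, a ratio of 17.5 (4.44 to 151; adjusted p = 0.00278). Both calls held whichever library was left out. The 4 markers of neurons and glia analysed here summed to 59.7 to 99.1 in WT distal and 82.9 to 157 in cKO distal libraries. Markers of myeloid cells (6 of 6) summed to 5550 to 22878 and 3627 to 5457 in the same groups, and their part in these 2 results was not tested. Slc1a7, a retinal glutamate transporter, stood at 1.06 to 6.36 in all 12 libraries and Slc7a6os at 214 to 437, and neither passed in any comparison. Slc6a8, the most abundant member per length in WT, stood at 5441, 6315 and 14727 in WT distal and 11283, 7751 and 10821 in cKO distal libraries (log2 fold change 0.30, SE 0.35, adjusted p = 0.580).

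Of the 8 organelle members, Slc38a10 rose and Slc36a4 fell in cKO distal, 12.5% each way, which is near the 13.3% and 11.7% over all genes. Slc38a10 went from 1062, 1032 and 1505 to 3561, 1952 and 2141 (log2 fold change 1.06, SE 0.27, adjusted p = 0.0124), without overlap and with the call lost without WT distal 2 or cKO distal 1 (adjusted p up to 0.0698). Slc36a4 went from 144, 127 and 108 to 64.6, 60.6 and 102 (log2 fold change -0.76, SE 0.26, adjusted p = 0.0455), lost without either library 1 or 2 of the distal groups (adjusted p up to 0.153). In the proximal segment Slc7a14, a cationic carrier-like protein of lysosomes, had 0 reads in the 3 WT and 3, 3 and 21 in the cKO libraries, at least 2.64-fold higher against the same floor (adjusted p = 0.0461). This bound rests on cKO proximal 3, without which the group mean was 0.955 times the floor and there is no bound. Slc38a11 went from 41.0, 29.2 and 19.3 to 12.1, 6.36 and 9.32 (log2 fold change -1.57, SE 0.45, adjusted p = 0.0480). The Slc38a11 call ended whichever of the 6 proximal libraries was left out (adjusted p up to 0.175), and that of Slc7a14 without any one WT proximal library, cKO proximal 2 or cKO proximal 3 (adjusted p up to 0.163). Slc38a9, the arginine sensor of the lysosome, stood at 112 to 264 in all 12 libraries and passed in no comparison, nor did Slc38a6 (64.9 to 193) or Slc38a8 (1.06 to 11).

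Among the remaining members, Slc7a4, an orphan relative of the cationic carriers, rose in both segments, from 115, 47.1 and 66.6 to 224, 192 and 165 in the proximal (log2 fold change 1.42, SE 0.38, adjusted p = 0.0357) and from 75.5, 53.4 and 103 to 268, 139 and 354 in the distal segment (1.65, SE 0.38, adjusted p = 0.00646). Its WT and cKO libraries did not overlap in either segment. The proximal call ended without WT proximal 2 or 3 or any one cKO proximal library (adjusted p up to 0.147). Slc7a15, a carrier of aromatic amino acids, stood at 351, 442 and 1533 in WT distal and 1843, 1253 and 1639 in cKO distal libraries (log2 fold change 1.33, SE 0.43, adjusted p = 0.0362). WT distal 3 lay above cKO distal 2, and the call was lost in 5 of 6 fits that left out a library, all but that without WT distal 3 (adjusted p up to 0.169). Slc43a3, a purine nucleobase carrier, fell from 104, 106 and 77.0 to 14.8, 24.1 and 50 (log2 fold change -1.81, SE 0.42, adjusted p = 0.00651), without overlap. Slc36a3os, at 13.4, 17.5 and 7.38 in WT distal and 2.12, 2.49 and 4.25 in cKO distal libraries, also fell (-1.76, SE 0.50, adjusted p = 0.0203), a call that ended without either library 1 or 2 of the distal groups (adjusted p up to 0.0863).

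**Figure D4:**
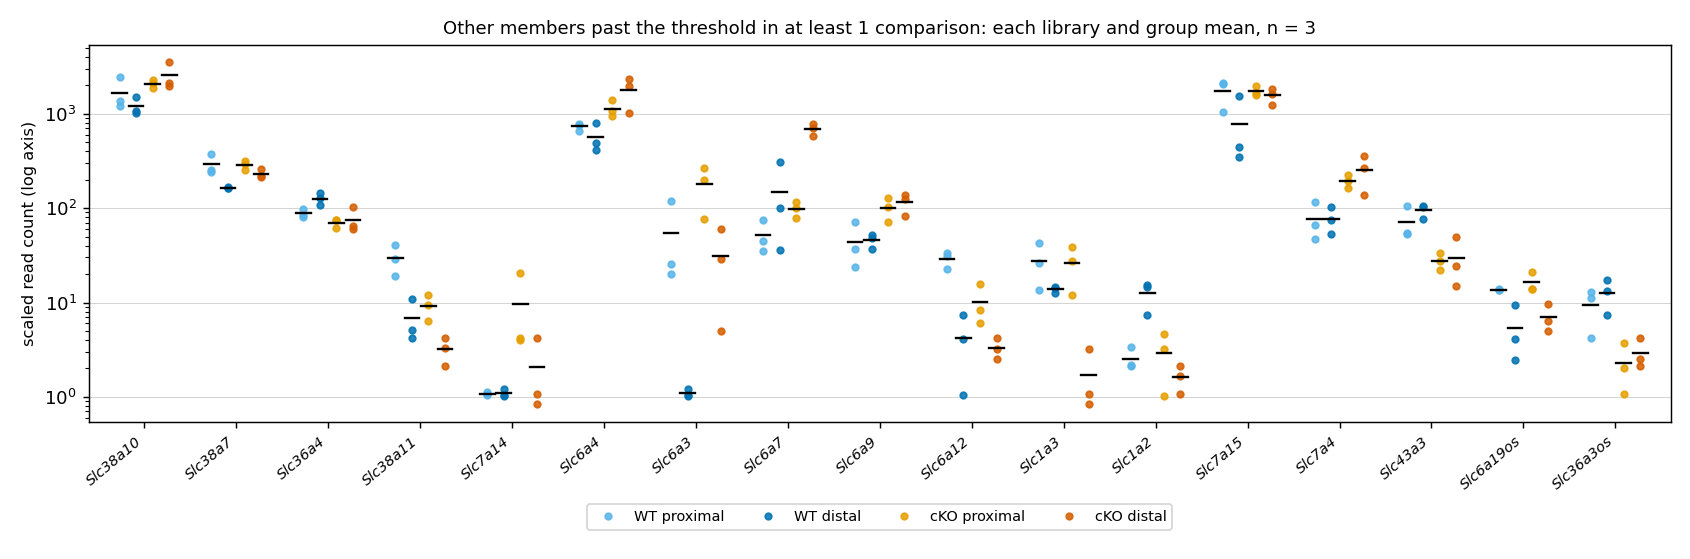
Scaled read count (y axis, log) of the members outside the brush border and basolateral groups that passed in at least 1 comparison (x axis), in each library (points, coloured by group) with the group mean (black bars). Slc6a3 is at about 1, the value of 0 reads, in all 3 WT distal libraries, and Slc6a7 is at 580 to 778 in cKO distal.

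The distal genotype calls depend on how the libraries of that segment are taken. WT distal 3 was the highest WT distal library in 16 of the 18 members that rose and in 28 of all 51. It lay above the lowest cKO distal library in 3 of the 18 (Slc6a19, Slc7a15 and Slc7a9), while WT distal 1 and 2 did so in 0. The 18 were chosen as higher in cKO distal, which limits such overlap, and these counts are not set against all genes. The enterocyte markers summed to 100582 and 136198 in WT distal 1 and 2 and to 208477 in WT distal 3. The share of mitochondrial reads was 37.7%, 29.5% and 22.3% in WT distal 1, 2 and 3 and 11.5%, 9.95% and 27.7% in the cKO distal libraries. With that share as a covariate 3 of the 25 members passed, Slc6a14, Slc1a3 and Slc6a3, and in the proximal segment 1 of 8, Slc38a1. Without both cKO libraries numbered 1, 11 of the 25 and 2 of the 8 passed. The shares over all genes in these fits are not given here, so whether the members lost more calls than other genes is not shown. Other settings ended the proximal calls of Slc7a14 (TMM, a pseudocount of 4, edgeR), Slc7a4 (TMM, edgeR) and Slc38a11 (a pseudocount of 0.5, edgeR) and the distal call of Slc7a15 (edgeR, DESeq2). A replicate block by number ended the proximal call of Slc38a11 and the distal calls of Slc36a4 and Slc6a20b.

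Other genes of amino acid handling were read from lists. Of 11 measured partners and other amino acid or peptide carriers, 4 rose in cKO distal (36.4%, against 13.3% over all genes), with a median of 0.85, among them the aromatic amino acid exit carrier Slc16a10 (log2 fold change 1.48, SE 0.32, adjusted p = 0.00445), the peptide carrier Slc15a1 (1.44, SE 0.41, adjusted p = 0.0196) and the lysosomal cationic amino acid exporter Pqlc2 (0.85, SE 0.26, adjusted p = 0.0301). Of 18 brush border and enterocyte genes outside transport, 7 rose (38.9%), with a median of 0.98, among them the trehalase gene Treh (3.22, SE 0.45), the meprin gene Mep1b (1.94, SE 0.38), the aminopeptidase gene Enpep (1.83, SE 0.42) and the maltase-glucoamylase gene Mgam (1.9, SE 0.50). Mgam stood at 12398, 18744 and 45840 in WT distal and 128904, 67104 and 63900 in cKO distal libraries, again with WT distal 3 highest of its group. The brush border protein gene Vil1 stood at 25442, 34843 and 46134 against 59564, 46985 and 29761, which overlap. The part of these general differences in the members' results was not tested.

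Of 23 genes of the ATF4 amino acid response, 4 rose in cKO proximal (17.4%, against 4.21% over all genes), with a median of 0.35. These were Ddit4, an inhibitor of mTORC1 (log2 fold change 1.09, SE 0.22, adjusted p = 0.0102), the asparagine synthetase gene Asns (0.88, SE 0.21, adjusted p = 0.0237), Atf4 itself (0.54, SE 0.14, adjusted p = 0.0297) and the seryl-tRNA synthetase gene Sars (0.57, SE 0.15, adjusted p = 0.0361). In cKO distal 2 rose and 3 fell, 8.7% and 13% against 13.3% and 11.7% over all genes, so the share called was near that of all genes. Those that fell were led by the serine synthesis gene Phgdh (-1.75, SE 0.36, adjusted p = 0.00334) and Shmt2 (-0.84, SE 0.18, adjusted p = 0.00430), with Trib3 (1.09, SE 0.28, adjusted p = 0.0110) and Sesn2 (0.99, SE 0.30, adjusted p = 0.0263) higher. Of 33 genes that carry amino acid signals to mTORC1, 1 rose in the proximal segment (3.03%, against 4.21% over all genes) and 3 rose and 4 fell in the distal (9.09% and 12.1%, against 13.3% and 11.7%), so the list was not called more often than all genes. Rragd, a Rag GTPase, rose in both, by 0.87 (SE 0.21, adjusted p = 0.0204) and 1.29 (SE 0.21, adjusted p = 0.000545) on the log2 scale.

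The second question was how the transporters differ along the intestine. In WT, 16 members passed between distal and proximal, 7 higher and 9 lower in the distal segment (13.7% and 17.6%), against 11.9% and 12.2% over all genes. In cKO, 7 passed, 4 higher and 3 lower (7.84% and 5.88%), against 4.16% and 6.36% over all genes. Slc1a1, Slc1a5, Slc6a14 and Slc6a3 passed in both genotypes. The numbers of the libraries pair the segments of a genotype, since the sample names in the labels are shared between them.

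The largest segment difference in WT was in Slc6a14. It had 0, 0 and 1 reads in WT proximal and 77, 183 and 269 in WT distal libraries, a ratio of scaled reads of 535 (95% interval 95.5 to 21151, counting error only; adjusted p = 1.16e-06). In cKO it had 1, 0 and 0 reads in proximal and 16, 12 and 5 in distal libraries, a ratio of 32.1 (5.38 to 1307; adjusted p = 0.00587). Slc1a1 stood at 36.8, 49.4 and 51.6 in WT proximal and 487, 397 and 981 in WT distal, and at 77.8, 80.5 and 35.4 in cKO proximal and 1497, 1168 and 550 in cKO distal libraries. Its log2 fold change was 3.63 in WT (SE 0.41, adjusted p = 3.67e-05) and 4.0 in cKO (SE 0.41, adjusted p = 2.32e-05). Slc1a5 was also higher in the distal segment of both, by 0.75 in WT (SE 0.17, adjusted p = 0.00656) and 1.08 in cKO (SE 0.17, adjusted p = 0.000915). The calls of these 3 genes held whichever library was left out.

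Slc7a5, Slc38a3, Slc1a2 and Slc38a2 also passed in WT as higher in the distal segment. Slc7a5 stood at 73.7, 62.9 and 68.8 in proximal and 180, 203 and 182 in distal libraries (log2 fold change 1.45, SE 0.31, adjusted p = 0.00415), and it was at 54.0 to 128 in all cKO libraries. Slc1a2 was higher by 1.88 (SE 0.47, adjusted p = 0.00972), Slc38a3 by 2.63 (SE 0.68, adjusted p = 0.0127) and Slc38a2 by 0.59 (SE 0.19, adjusted p = 0.0355). Slc38a3 did not pass without WT proximal 2 (adjusted p = 0.0620), and Slc38a2 did not without WT proximal 2 or 3 or WT distal 2 or 3 (adjusted p up to 0.146). In cKO these 4 did not pass, but the interaction did not pass for any of them either (Slc7a5 -1.19, adjusted p = 0.242; Slc1a2 -2.38, adjusted p = 0.114; Slc38a3 -1.03, adjusted p = 0.705; Slc38a2 -0.25, adjusted p = 0.751).

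Lower in WT distal were the imino acid carrier Slc6a20a (log2 fold change -1.69, SE 0.34, adjusted p = 0.00288), the light chain Slc7a8 (-1.43, SE 0.34, adjusted p = 0.00805), Slc7a15 (-1.42, SE 0.43, adjusted p = 0.0278), the heavy chain Slc3a2 (-0.93, SE 0.32, adjusted p = 0.0498), the lysosomal glutamine exporter Slc38a7 (-0.78, SE 0.20, adjusted p = 0.0111), the betaine carrier Slc6a12 (-2.74, SE 0.52, adjusted p = 0.00182), Slc38a11 (-2.03, SE 0.45, adjusted p = 0.00537), Slc6a19os (-1.37, SE 0.45, adjusted p = 0.0382) and Slc6a3. Slc6a12 stood at 33.7, 22.4 and 31.2 in proximal and 7.31, 4.11 and 1.05 in distal WT libraries. Slc6a3 had 111, 17 and 23 reads in WT proximal and 0 in each WT distal library, at least 16.2-fold lower against the floor of 3 reads per library (adjusted p = 0.00161), and at least 6.64-fold lower without WT proximal 1. The calls of Slc3a2 and Slc7a15 ended without WT proximal 1 or 3 or WT distal 1 or 2 (adjusted p up to 0.191 and 0.123), that of Slc6a19os without any one library but WT distal 3 (up to 0.134) and that of Slc38a7 without WT proximal 1 (0.0564). The calls of Slc3a2, Slc7a15 and Slc6a19os did not pass in edgeR or with the mitochondrial share as a covariate either, nor did that of Slc38a3 in edgeR.

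With the sample name as a block, which uses the pairing, another 5 members passed in WT: Slc36a1 (log2 fold change -1.29, adjusted p = 0.0140), Slc6a19 (-1.25, adjusted p = 0.0301), Slc43a1 (1.16, adjusted p = 0.0283), Slc7a11 (1.16, adjusted p = 0.0334) and Slc7a6 (0.83, adjusted p = 0.0385). In cKO the block added Slc6a20b (-1.76, adjusted p = 0.0242) and Slc7a14 (-1.61, adjusted p = 0.0271). All 16 and all 7 members that passed without the block also passed with it.

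In cKO, 3 members passed between segments that did not pass in WT. Slc38a1 stood at 1465, 1503 and 1837 in cKO proximal and 505, 588 and 539 in cKO distal libraries (log2 fold change -1.55, SE 0.19, adjusted p = 9.58e-05), against 0.13 in WT. Slc6a7 stood at 77.8, 101 and 116 in proximal and 699, 580 and 778 in distal cKO libraries (2.80, SE 0.55, adjusted p = 0.00413), against 1.07 in WT. Slc1a3 had 26, 36 and 12 reads in proximal and 2, 0 and 0 in distal cKO libraries, a ratio of 38 (95% interval 10.2 to 320, counting error only; adjusted p = 0.000896). Slc6a3 was lower in cKO distal, at 28.6, 4.98 and 59.5 against 197, 76.3 and 267 in cKO proximal (-2.86, SE 0.79, adjusted p = 0.0336). The Slc6a3 call ended without cKO proximal 1 or 3 or cKO distal 1 or 2 (adjusted p up to 0.129). It also ended in edgeR and without both cKO libraries numbered 1. Slc38a1 and Slc1a3 held their calls in every fit that left out a library, as did Slc6a7, whose call ended without both cKO libraries numbered 1. The difference between genotypes in these segment effects passed for Slc38a1 and not for Slc6a7 (interaction 1.74, SE 0.77, adjusted p = 0.354) or Slc1a3 (-2.49, SE 0.74, adjusted p = 0.136).

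**Figure D5:**
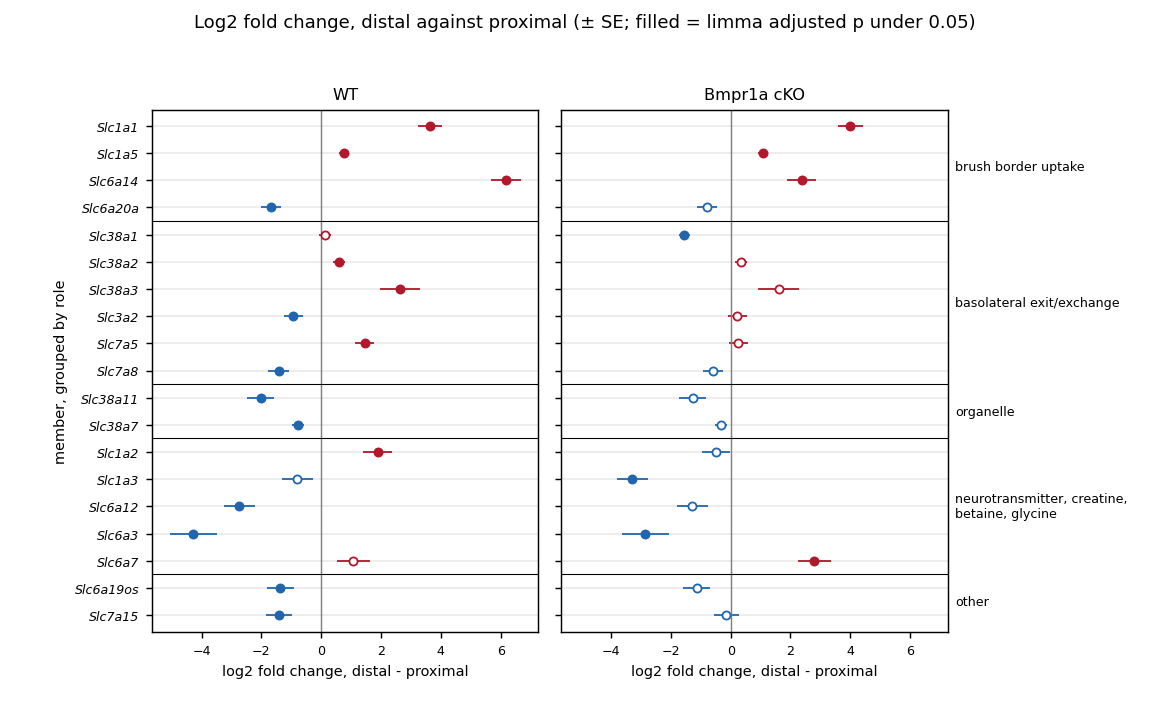
Log2 fold change (x axis) between the distal and proximal segments in WT (left) and Bmpr1a cKO (right) for the 19 members that passed in at least 1 genotype (y axis, grouped by role), from limma, with bars of 1 SE; filled points passed at an adjusted p under 0.05. Slc1a1 lies at 3.63 and 4.0, Slc6a14 at 6.18 and 2.37.

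Several members passed between segments in WT and, in the opposite direction, between genotypes in the distal segment. These comparisons share the WT distal libraries, so their values are set side by side only. Slc6a20a had log2 fold changes of -1.69 (WT distal against proximal) and 1.39 (cKO against WT, distal), Slc7a8 -1.43 and 1.59, Slc3a2 -0.93 and 1.61, and Slc7a15 -1.42 and 1.33. The WT segments overlapped for Slc3a2 and Slc7a15, and the distal genotype groups for Slc7a15. Slc6a3, without reads in WT distal, was at least 16.2-fold lower there than in WT proximal. It was at least 9.11-fold higher in cKO distal than in WT distal. In the opposite direction Slc7a5 had 1.45 and -1.13, Slc1a2 1.88 and -2.32, and Slc6a14 6.18 and -3.87. For Slc7a5 the mean was 68.4 ± 5.41 in WT proximal, 189 ± 12.8 in WT distal, 73.2 ± 23.1 in cKO proximal and 90.7 ± 36.8 in cKO distal libraries (SD, n = 3), so WT distal stood apart from the other 3 groups.

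Whether the genotype difference itself changed along the intestine was tested as an interaction. Of the 51 members 2 passed, both lower (3.92%), against 0.175% higher and 0.402% lower over all genes. At an unadjusted p under 0.05 limma gave 5 members higher and 5 lower. At the adjusted threshold edgeR gave 0 and 1 and DESeq2 1 and 2. The shares over all genes at these settings are not given here. For Slc6a14 the cKO difference was -0.06 in the proximal and -3.87 in the distal segment, an interaction of -3.81 (SE 0.69, adjusted p = 0.0280). For Slc38a1 it was 1.44 and -0.24, an interaction of -1.68 (SE 0.27, adjusted p = 0.0184). The call of Slc38a1 ended without WT distal 2 or cKO distal 1 (adjusted p up to 0.0555) and that of Slc6a14 without WT proximal 1 or 2, WT distal 2, cKO proximal 1 or 3 or cKO distal 1 or 2 (adjusted p up to 0.0998). The Slc6a14 interaction also did not pass in edgeR or DESeq2. With at most 1 read per proximal library its proximal difference could not be measured, so a change of it between segments is not shown. Neither interaction passed without both cKO libraries numbered 1. Slc6a19, whose distal difference was 1.67 and proximal -0.21, had an interaction of 1.88 (SE 0.66, adjusted p = 0.214), and its genotype effects are not shown to differ between segments. It passed without WT distal 3 (2.52, adjusted p = 0.0257), as did Slc7a15 (1.93, adjusted p = 0.0315) and Slc6a7 (2.51, adjusted p = 0.0403).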

How the data were processed

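The 12 RNA-seq libraries fall into 4 groups of 3, by genotype (WT or Bmpr1a cKO) and segment. Trizol was used for extraction and the Ovation RNA-Seq System V2 for amplification, per the labels' protocols. Reads were, per the submitters' processing notes, aligned to mm10 with STAR, whose version these sources leave out, and analysed with DESeq2 1.28.1. Each deposited value is a signal, a read count plus 1 divided by a size factor: all 206100 values were whole multiples of a step of their column, within 0.001 steps, and dividing by the step and subtracting 1 gave whole reads. The authors' deposited comparison columns, a log2 fold change with its standard error, a score, a p-value and an adjusted p-value, were not used.

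In R 4.3.3, limma 3.58.1 with a mean-variance trend was fitted to log2(value + 1) over all 17175 genes with 4 group means, and p-values were adjusted over all genes (Benjamini-Hochberg, threshold 0.05). The fit was tested on simulated data. Genotypes were compared within each segment and segments within each genotype, and the interaction asks whether the genotype difference is the same in both segments. Where every library of a group had 0 reads, 3 reads per library served as its floor. Ratios against a group with 1 to 3 reads have an exact (Clopper-Pearson) 95% interval. Intervals and floors cover counting error only. Levels per length use merged GENCODE M21 exons, in which all 51 members were found, and similarity of member transcripts comes from BLAST+ 2.17.0.

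Members and lists were chosen with earlier results of these data known. Named were all brush border and basolateral members, any other member that passed in a comparison, and up to 4 genes of each list per comparison by smallest p; Bmpr1a, Id1, Vil1, Slc6a8 and the remaining members were named in addition, after their values were seen. Some genes of the lists are not reported here. Between the segments of a genotype, libraries with one number deviated together (r = 0.38, 0.27 and 0.38 in WT and 0.25, 0.31 and 0.44 in cKO, over 12610 genes), and their sample names are shared, so the numbers pair the segments. Alternatives were TMM scaling, pseudocounts of 0.5 and 4, a mean value of at least 10 in a group, edgeR 4.0.16 and DESeq2 1.42.0 on recovered reads, the mitochondrial share as a covariate, a replicate block, a change of at least 2-fold, and leaving out single libraries or both cKO libraries numbered 1.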

Additional observations from a re-analysis of the deposited data

Results flagged for a closer look

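For 2 members the interaction, a test of whether the cKO difference is the same in both segments, passed in limma. For Slc38a1, a sodium-coupled carrier of neutral amino acids, the cKO difference was 1.44 in the proximal and -0.24 in the distal segment on the log2 scale, an interaction of -1.68. It did not pass without WT distal 2 or cKO distal 1. For Slc6a14, a carrier of neutral and cationic amino acids, the fitted values were -0.06 and -3.87, an interaction of -3.81. The gene had at most 1 read in any proximal library, so a proximal genotype difference could not be measured, and a change of that difference between segments is not shown. The Slc6a14 interaction did not pass in 7 of the 12 fits that left out a library, in edgeR or in DESeq2. Neither member passed without both cKO libraries numbered 1.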

How the results depend on the processing

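Taken over the 5 comparisons together, counts of members that passed kept within 1.5 times of those reported in most fits. The proximal genotype count did not in most fits that left out 1 library. No member that passed reversed its direction. The counts in this section are of members only and are not set against all genes in the same fit. With the mitochondrial share as a covariate 1 member passed in the proximal (8 as reported) and 3 in the distal genotype comparison (25 as reported). Without both cKO libraries numbered 1 there were 2 in the proximal, 11 in the distal and 0 in the interaction (2 as reported; in that limma fit 1 member was higher and 5 lower at an unadjusted p under 0.05). A change of at least 2-fold was met by 5 of the 8 proximal members, and edgeR gave 1 for the interaction. The 2-fold rule is stricter by construction, and leaving out libraries leaves fewer samples; the cause of the other changes was not tested. The WT segment comparison uses no cKO library and was not refitted without them. Leaving out 1 library at a time gave 1 to 10 members in the proximal and 13 to 27 in the distal genotype comparison, 12 to 19 between segments in WT, 6 to 9 in cKO, and 0 to 5 in the interaction. The proximal count moved by over 1.5 times without any one library but WT proximal 1, the distal one without WT distal 1 or 2 or cKO distal 1 (16, 14 and 13), and the interaction was at 0 without WT distal 2 or cKO distal 1 and at 5 without WT distal 3. Members that passed in every such fit were 1 of 8, 13 of 25, 10 of 16, 6 of 7 and 0 of 2. With a replicate block by sample name 21 members passed between segments in WT, 9 in cKO and 2 in the interaction. Between genotypes libraries with one number did not deviate together (r from -0.2 to 0.09 within a segment), so the numbers are not taken to pair them; a replicate block by number gave 7 members in the proximal and 24 in the distal segment. Low counts limit Slc6a14 in the proximal and Slc1a2, Slc1a3, Slc6a3 and Slc7a14 in single groups, where differences rest on a few reads. Other members that passed also had few reads in a group. Among them, Slc6a12 had 5, 3 and 0, Slc38a11 8, 4 and 3 and Slc6a19os 1, 3 and 8 reads in WT distal libraries. Slc38a3 had 10, 0 and 2 reads in WT proximal and Slc36a3os 1, 2 and 3 in cKO distal libraries.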
